A study of Homo sapiens with 54 samples.

Results

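The hormone-induced progesterone receptor (PR) sites without acetylation are regions that PR occupied after R5020 in chromatin where no H3K27Ac region was called. They were selected on the called PR and H3K27Ac regions themselves, as the rows of the R5020 PR peak list, on chromosomes 1 to 22 and X, that share no base with an H3K27Ac region of either treatment or with a vehicle PR region. They number 117366 of 173115 R5020 PR regions (67.8%, 95% Wilson interval 67.6 to 68.0), and are called unacetylated sites below. The other R5020 PR regions were 39437 in chromatin with H3K27Ac already under vehicle (pre-acetylated sites), 10418 with H3K27Ac after R5020 alone (newly acetylated sites) and 5894 that overlapped a vehicle PR region. Of these 5894 regions, 277 had no H3K27Ac in either treatment and were kept out by the vehicle PR region alone.

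The cells were T47D, a human breast cancer line positive for oestrogen receptor and PR, treated for 1 h with R5020, a synthetic progestin, or with its ethanol vehicle (OH). ChIP-seq was done for PR, Maf1, Brf1, H3K27Ac and 4 subunits of RNA polymerase III (POLR3GL, POLR3G, POLR3C and POLR3A), with 3 libraries for each antibody and treatment. All groups share the 1 cell line, and the labels do not say whether the libraries came from separate cultures. One deposited peak list stands for each antibody and treatment, so no value here has a spread between replicates and no p-value is given. Library depth is unknown, and an absent peak may be a site under the caller's threshold. H3K27Ac regions lay within 1 kb of a gene end for 10 of 10 luminal marker genes with vehicle, among them GATA3 and FOXA1, and for 2 of 6 basal or mesenchymal ones (TP63 and ZEB1). They also lay there for 2 of 4 leukocyte markers, and not for PTPRC and CD14. For 4 R5020 libraries of POLR3C, POLR3G and POLR3GL the title says R5020 and the treatment tag says ethanol.

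PR is a nuclear receptor that, once bound by a progestin, dimerises on DNA at palindromic response elements and recruits coactivators. Some coactivators acetylate lysine 27 of histone H3, a mark of active promoters and enhancers. In breast epithelium PR drives both fast transcriptional responses and the paracrine signals of alveolar development. Maf1 is a repressor of RNA polymerase III, Brf1 is its initiation factor at tRNA genes, and the POLR3 proteins are subunits of the enzyme.

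Sequence was available for promoter windows only, 250 bases before to 50 after a start site (RefSeq, GRCh38.p14), and 913 unacetylated sites (0.778%) shared a base with one. For 186 of them the summit window, the PR summit with 100 bases to each side, lay wholly inside a promoter window. The palindromic element was searched as GNACA and TGTNC with any 3 bases between them, which reads the same on both strands. The sites below are the 5 of highest -log10 q with a full match, shown because they carry the searched letters within the summit window. Capitals mark the match, each line runs 5′ to 3′ on the gene's strand, and no base past the start site is printed. The stretches are chr10:29946903-29947103 (plus strand), chr12:58781717-58781910 (minus), chr19:31023107-31023307 (plus), chr6:63806653-63806835 (plus) and chr12:29317858-29318058 (minus).
LOC124902403: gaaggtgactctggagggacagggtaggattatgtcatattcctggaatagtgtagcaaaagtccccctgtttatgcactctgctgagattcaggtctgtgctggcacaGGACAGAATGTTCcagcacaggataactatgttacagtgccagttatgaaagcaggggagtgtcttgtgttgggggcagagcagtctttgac
LINC02388: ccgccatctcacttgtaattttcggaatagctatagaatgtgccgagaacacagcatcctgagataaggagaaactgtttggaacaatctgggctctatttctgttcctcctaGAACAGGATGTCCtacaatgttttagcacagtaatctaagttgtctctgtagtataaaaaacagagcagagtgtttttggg
LOC105372355: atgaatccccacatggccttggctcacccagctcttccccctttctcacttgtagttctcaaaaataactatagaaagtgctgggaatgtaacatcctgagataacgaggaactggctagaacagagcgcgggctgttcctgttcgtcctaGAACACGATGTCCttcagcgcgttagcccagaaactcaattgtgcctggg
SCAT8: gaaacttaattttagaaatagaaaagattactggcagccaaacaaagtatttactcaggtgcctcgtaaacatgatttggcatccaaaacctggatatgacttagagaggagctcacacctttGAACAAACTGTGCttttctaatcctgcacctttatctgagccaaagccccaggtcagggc
FAR2-AS1: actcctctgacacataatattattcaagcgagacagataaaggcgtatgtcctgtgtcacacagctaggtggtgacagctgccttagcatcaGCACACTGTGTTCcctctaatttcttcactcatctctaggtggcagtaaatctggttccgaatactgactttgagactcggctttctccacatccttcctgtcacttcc
These 5 sites lie at promoters of long non-coding or uncharacterised transcripts. Their deposited PR folds (the enrichment that the caller gave the summit) were 17.4, 8.11, 9.72, 7.66 and 6.59 in the order printed. The centre of the match lay 15, 19, 57, 29 and 2 bases from the summit. The windows of LINC02388 and LOC105372355 are related in sequence: a local alignment matched 116 of 148 aligned bases (78.4%). A lower-ranked match, at LOC107984001, aligned to the same windows at 77.2% and 79.3% identity. Of the 10 full matches, then, 3 lie in copies of a related sequence, at chromosomes 12, 19 and 20, and are not independent examples.

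The unacetylated promoter sites of highest -log10 q did not hold the full letters. One full match, at LOC124902403 (fold 17.4), did lie in the top quartile of PR fold of the whole list. The highest 2 by -log10 q are shown for comparison, with the window's closest match in capitals, at chr10:43778744-43778944 (plus) and chr4:159035230-159035395 (minus).
LOC105378275: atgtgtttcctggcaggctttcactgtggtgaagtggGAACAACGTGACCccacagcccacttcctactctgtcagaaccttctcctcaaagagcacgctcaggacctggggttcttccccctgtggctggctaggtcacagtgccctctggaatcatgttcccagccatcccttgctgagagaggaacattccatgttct
SPMIP2: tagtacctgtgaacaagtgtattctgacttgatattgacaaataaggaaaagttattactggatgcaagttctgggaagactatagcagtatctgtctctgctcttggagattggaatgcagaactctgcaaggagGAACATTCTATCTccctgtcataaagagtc
The LOC105378275 stretch differs from the searched letters at 1 of its 8 fixed positions and the SPMIP2 stretch at 2. PR folds there were 34.2 and 43.7, above those of all 5 full matches printed. SEPTIN14, which encodes a septin, was next among promoter sites, with a fold of 32.2 and a closest match with 2 mismatches.

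Full matches were found in 10 of the 186 summit windows (5.38%, 2.95 to 9.61). Over all R5020 PR regions with such a window the share was 1.01%. Pre-acetylated sites held it in 5 of 1080 windows (0.463%), a difference of 4.91 percentage points (95% Newcombe interval 2.41 to 9.16). Among 34961 promoter windows trimmed to the same length the share was 0.243%. For newly acetylated sites it was 0 of 33, which allows up to 10.4%, and the difference of 5.38 points has an interval that includes 0 (-5.33 to 9.61). With up to 1 mismatch, a form added after the full match had been counted, the share was 32.8% of unacetylated windows (26.5 to 39.8). It was 8.43% of pre-acetylated ones (6.91 to 10.2) and 5.37% of all promoters, against 10.7% of all R5020 PR windows. Newly acetylated windows had 6 of 33 (18.2%), and that difference, 14.6 points, has an interval that includes 0 (-2.79 to 26.5). By rising quartile of PR fold, full matches were in 3 of 58, 1 of 50, 5 of 44 and 1 of 34 unacetylated windows. With up to 1 mismatch the shares were 29.3%, 30.0%, 29.5% and, in the top quartile, 47.1% (31.5 to 63.3).

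Base composition differed between the classes as well. Median GC content was 46.8% at the unacetylated windows, 49.3% at the 33 newly acetylated ones, 66.2% at pre-acetylated ones and 59.2% over all promoters. Between 45% and 55% GC the full match was in 6 of 83 unacetylated windows (7.23%, 3.36 to 14.9), in 1 of 130 pre-acetylated ones (0.769%, 0.136 to 4.23) and in 0.292% of promoters. Under 45% GC it was in 3 of 73 (4.11%, 1.41 to 11.4), in 0 of 33 and in 0.413%. Of the other motifs, each read on both strands, TGTTTAC (a forkhead core) was in 7.53% of unacetylated, 2.22% of pre-acetylated and 12.1% of newly acetylated windows, and in 2.33% of all promoters. For AGATAA, a core bound by zinc-finger factors such as GATA3, the shares in the same order were 14.0%, 2.59%, 15.2% and 7.22%. For the AP-1 letters TGANTCA they were 8.60%, 3.06%, 18.2% and 5.37%, and the difference from all promoters has an interval that includes 0 (-0.014 to 8.15). For these 3 motifs the difference from the 33 newly acetylated windows has an interval that includes 0. The GC box GGGCGG was in 10.8% against 59.4%, and in 40.2% of all promoters. A match is a description of letters, and its part in PR binding was not tested.

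The strength of PR at unacetylated sites lay below that of the other classes, as a description of the list that chose them. Their median fold was 5.42 (quartiles 4.00 and 8.81), with 9.77 at newly acetylated sites, 7.26 at pre-acetylated sites and 11.1 where vehicle PR was present. They were also narrower, with a median width of 249 bp against 389.5, 399 and 793 bp. The range was wide: 24443 unacetylated sites (20.8%) had a fold of at least 10, and 606 had at least 40. Unacetylated sites made up 76.5% of R5020 PR regions with folds from 4 to 8 (76.1 to 76.8) and 20.7% of those at 32 or more (19.9 to 21.6). At the edge of the rule, 3164 sites lay under 100 bases from an H3K27Ac region and had a median fold of 5.97. The 4500 PR regions just outside it, which shared under 100 bases with H3K27Ac, had 6.14.

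**Figure D1:**
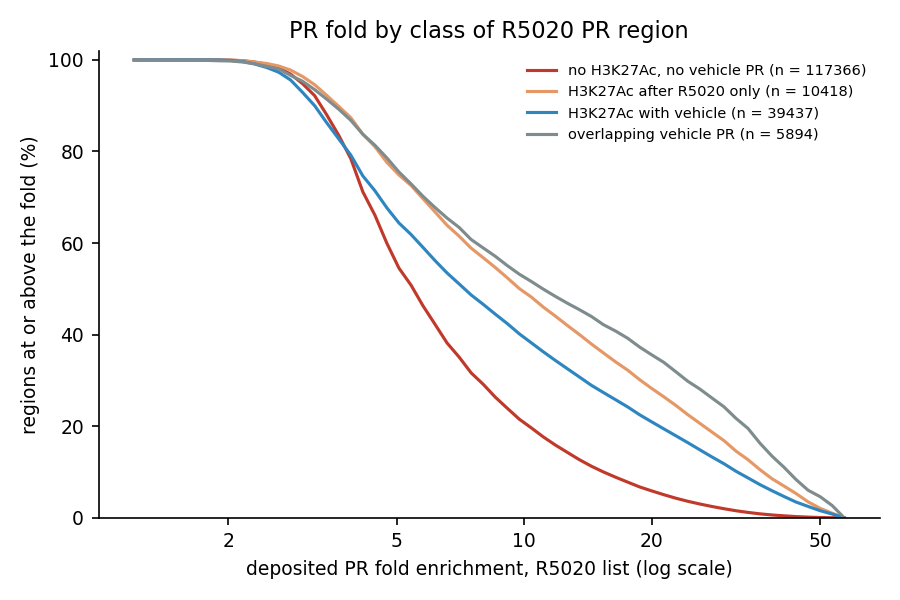
Share of R5020 PR regions (vertical axis, %) at or above each deposited PR fold (horizontal axis, log scale), with 1 line per class. The line of the 117366 unacetylated sites falls fastest, to 20.8% at a fold of 10, and still reaches folds above 40.

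The 10 unacetylated sites of highest -log10 q were all bound about as strongly as any region of the list, with folds from 54.8 to 56.4. Of the 10, 6 lay inside the span of a protein-coding gene; the gene table does not give exons. The first lay in GNAQ, a G protein alpha subunit, at chr9:77763414-77764190 (fold 56.4). The next were in HADHB, a mitochondrial beta-oxidation enzyme (chr2:26274062-26274821), ACVR1, an activin-type receptor (chr2:157866947-157867776), and PRDM1, the transcriptional repressor BLIMP1 (chr6:106103430-106104153), each with a fold of 56.2. Further ones lay in G3BP1, a stress granule protein (chr5:151779495-151780394, fold 54.8), and EPC1, a subunit of the NuA4 acetyltransferase complex (chr10:32360198-32360765, fold 54.9). The remaining 4 were between genes, the nearest being GTF3C6, DPYSL2, NEO1 and TMEM242, from 4.99 to 52.9 kb away. GTF3C6 encodes a subunit of the polymerase III factor TFIIIC. All 10 shared a base with an R5020 Maf1 region. None shared one with a vehicle Maf1 region, an R5020 Brf1 or POLR3A region, or a POLR3G region of either treatment. Those regions were rare at all unacetylated sites, so their absence does not set the 10 apart. The shares were 0.0332% for vehicle Maf1, 0.0290% for R5020 Brf1 and 0.0281% for R5020 POLR3A. For POLR3G they were 1.04% with R5020 and 1.23% with vehicle. The nearest H3K27Ac region was under 1 kb away at 7 of the 10 and 19.3 kb away at the one near TMEM242. Several were at the edge of the rule, at 0.027 kb (near DPYSL2), 0.096 kb (EPC1) and 0.13 kb (G3BP1). Those near NEO1 and in PRDM1 were at 0.153 and 0.157 kb.

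Maf1 was rare at unacetylated sites as a whole. R5020 Maf1 regions shared a base with 1885 of them (1.61%, 1.54 to 1.68), where all R5020 PR regions gave 10.2%. With at least 50% of both regions shared it was 0.223%, a form not counted for the other classes. The share was 16.9% at newly acetylated sites, a difference of -15.3 points (-16.0 to -14.6), and 24.5% at pre-acetylated sites, a difference of -22.9 points (-23.3 to -22.4). Under vehicle, Maf1 was found at 39 unacetylated sites (0.0332%), with 1.35% over all R5020 PR regions and 1.94% at pre-acetylated sites. It was as rare at newly acetylated sites (5, 0.0480%), where the interval of the difference includes 0 (-0.0797 to 0.0153 points). The intervals here and below count regions, which are not replicates, and neighbouring regions are not independent.

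Within the unacetylated sites, Maf1 was found mainly where PR was strongest. Of the 1885 with Maf1, 1703 (90.3%) fell in the top quartile of PR fold of the whole list, and their median PR fold was 33.2 against 5.42 at sites without Maf1. They were also wider, 614 bp against 247 bp at the median, and the part of width in the overlap was not tested. In the top quartile, below a fold of 20, Maf1 was at 116 of 14180 unacetylated sites (0.818%, 0.683 to 0.980). Between 20 and 30 it was at 9.57% of 4682, between 30 and 40 at 38.5% of 1627, and at 40 or more at 512 of 606 (84.5%, 81.4 to 87.2). The share was thus higher in each higher band of PR fold.

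Within bands of PR fold Maf1 was still less frequent without acetylation, though fold and width were not matched inside a band. In the highest band, at 40 or more, Maf1 was at 94.1% of newly acetylated sites and 96.0% of pre-acetylated sites. The differences were -9.63 points (-13.0 to -6.37) and -11.6 points (-14.7 to -8.73). Between 30 and 40 they were -26.7 points (-30.5 to -22.8) and -33.8 points (-36.7 to -30.8). In the 3 lower quartiles of fold, Maf1 was at 0.139% to 0.237% of unacetylated sites and at 11.5% to 17.7% of pre-acetylated ones. Newly acetylated sites were also low there, from 0.657% to 1.38%. At the edge of the rule, Maf1 was at 157 of the 3164 sites under 100 bases from H3K27Ac (4.96%). For the 4500 PR regions sharing under 100 bases with H3K27Ac it was at 320 (7.11%). Median widths of these sets were 271 and 281 bp, and median PR folds 5.97 and 6.14. Of the 606 sites at 40 or more, 0 had R5020 Brf1 (all PR regions 0.288%), 0 had R5020 POLR3A (all 0.127%) and 11 had R5020 POLR3G (all 9.73%). The 782 newly acetylated sites of that band had 4, 0 and 89.

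**Figure D2:**
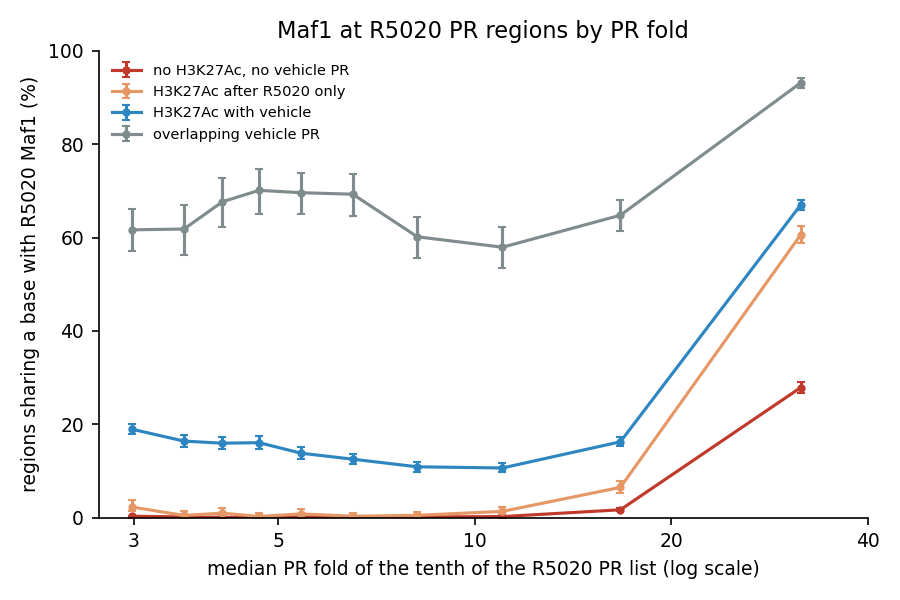
Share of R5020 PR regions that share a base with an R5020 Maf1 region (vertical axis, %, bars are 95% Wilson intervals) in 10 equal parts of the list ordered by PR fold (horizontal axis, log scale), by class. Unacetylated sites (the line for no H3K27Ac and no vehicle PR) lie lowest, at 27.9% in the last part. Newly acetylated sites have a similar shape, with at most 2.31% up to the eighth part and 60.6% in the last, while regions overlapping vehicle PR lie between 57.9% and 93.1%.

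From the side of Maf1, 1887 R5020 Maf1 regions (8.34% of that list) lay at unacetylated sites and at no other class of PR region. Their median Maf1 fold was 4.14, with 4.39 for Maf1 regions at pre-acetylated sites and 3.35 for Maf1 regions without R5020 PR. A vehicle Maf1 region was present at 41 of them (2.17%, whole R5020 Maf1 list 11.6%), at 7.30% of the Maf1 regions at pre-acetylated sites and at 0.444% of those at newly acetylated sites. The 5 unacetylated sites of highest fold with no Maf1 in either treatment had folds from 46.3 to 48.96. They lay near PRDM2 and PROK2 and inside F8, KCNH7 and CCNYL1, which encode coagulation factor VIII, a potassium channel and a cyclin Y-like protein in that order. The one near PROK2 (chr3:71978066-71978820, fold 48.4) was 104 kb from the nearest H3K27Ac region.

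Polymerase III subunits were found at few unacetylated sites. R5020 POLR3G regions, with the label conflict noted above, overlapped 1222 of them (1.04%, 0.985 to 1.10), against 9.73% of all R5020 PR regions and 28.3% of pre-acetylated sites. It was 0.301% with at least 50% of both regions shared, and 0.554% at sites over 1 kb from H3K27Ac and vehicle PR. Neither form was counted for the other classes. The difference from pre-acetylated sites was -27.2 points (-27.7 to -26.8). The vehicle POLR3G list, free of the conflict, gave 1446 sites (1.23%) and 11.1% over all PR regions. POLR3G varied less with PR strength than Maf1 did, from 0.745% to 1.54% over the quartiles of PR fold. R5020 POLR3A was at 33 sites (0.0281%, all PR regions 0.127%) and vehicle POLR3A at 36 (0.0307%, all 0.143%). Brf1 was at 34 with R5020 (0.0290%, all 0.288%) and 21 with vehicle (0.0179%, all 0.105%). POLR3C was at 5 and 4 (all 0.194% and 0.177%), and POLR3GL at 63 and 86 (0.0537% and 0.0733%, all 0.0676% and 0.0826%).

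Some of the few sites with POLR3A were at tRNA genes. Of the 33 with R5020 POLR3A, 16 lay within 200 bp of one. With POLR3A or Brf1 in either treatment, it was 17 of 48. POLR3A was present in both treatments at 29 unacetylated sites, 16 of them within 200 bp of a tRNA gene, and 6 had R5020 Maf1. In all, 16 of 422 tRNA genes had an unacetylated site within 200 bp (3.79%, 2.35 to 6.07), and 25.4% had any R5020 PR region there. All 16 genes had POLR3A in both treatments (all tRNA genes 83.4%) and Brf1 under vehicle (all 71.1%), and 14 had Brf1 after R5020 (all 73.2%). The 107 tRNA genes with any R5020 PR region likewise all had POLR3A in both treatments and vehicle Brf1, and 105 had R5020 Brf1. Only TRE-TTC2-2, a glutamate tRNA gene, also had R5020 Maf1, which was at 22.3% of all tRNA genes and at 62 of those 107. PR folds at the 16 ran from 3.55 to 10.7, with a median of 6.35. The highest were TRN-GTT2-4 on chromosome 13 (fold 10.7), an asparagine tRNA gene, and TRG-GCC3-1 on chromosome 16 (fold 10.0), a glycine tRNA gene that had Brf1 under vehicle alone. TRS-AGA3-1, a serine tRNA gene of chromosome 6, was the lowest (3.55) and also lacked R5020 Brf1.

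Unacetylated sites were mostly distal. For 3286 of them a protein-coding gene started or ended within 1 kb (2.80%, 2.71 to 2.90), with 9.77% over all R5020 PR regions. Against pre-acetylated sites (27.3%) the difference was -24.5 points (-25.0 to -24.1), and against newly acetylated sites (5.27%) it was -2.47 points (-2.93 to -2.05). A start site of such a gene was within 1 kb of 1401 (1.19%, all PR regions 7.56%). Protein-coding gene spans held 53.6% of the unacetylated sites (all 57.6%), and 33.2% were outside every annotated gene (all 29.9%). That last share was 22.6% at pre-acetylated sites, a difference of 10.6 points (10.1 to 11.1). Spans of long non-coding RNA genes held 15.4% (all 15.7%), close to the whole list.

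The sites thinned out with distance from acetylated chromatin. The nearest H3K27Ac region of either treatment was 13.7 kb away at the median (quartiles 2.88 and 50.03 kb), and 16598 sites (14.1%) were at least 100 kb away. Per Mb of sequence, 111 unacetylated sites lay under 1 kb from H3K27Ac, 63.8 at 3 to 10 kb, 36.6 at 30 to 100 kb and 10.6 at 300 to 1000 kb. Beyond 1000 kb there were 256 sites, 2.51 per Mb, over bases that include assembly gaps such as centromeres. Median PR fold changed little over the same distances, from 5.80 under 1 kb to 4.93 at 300 to 1000 kb. The upper quartile of PR fold fell more, from 10.5 to 7.34 over the same bands. These distances are measured to the lists that the rule used and are given as a description.

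Maf1 followed the same gradient. It was at 3.51% of unacetylated sites under 1 kb from H3K27Ac (3.24 to 3.80) and at 0.821% of those at 300 to 1000 kb (0.579 to 1.16). Within the top quartile of PR fold, Maf1 was at 13.5% under 1 kb (12.4 to 14.6), 7.50% at 1 to 10 kb, 6.71% at 10 to 100 kb and 6.40% farther out (5.45 to 7.49). In that quartile the drop lay mainly between the first distance band and the rest, where median PR folds were 17.8 and 16.0 to 16.3.

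**Figure D3:**
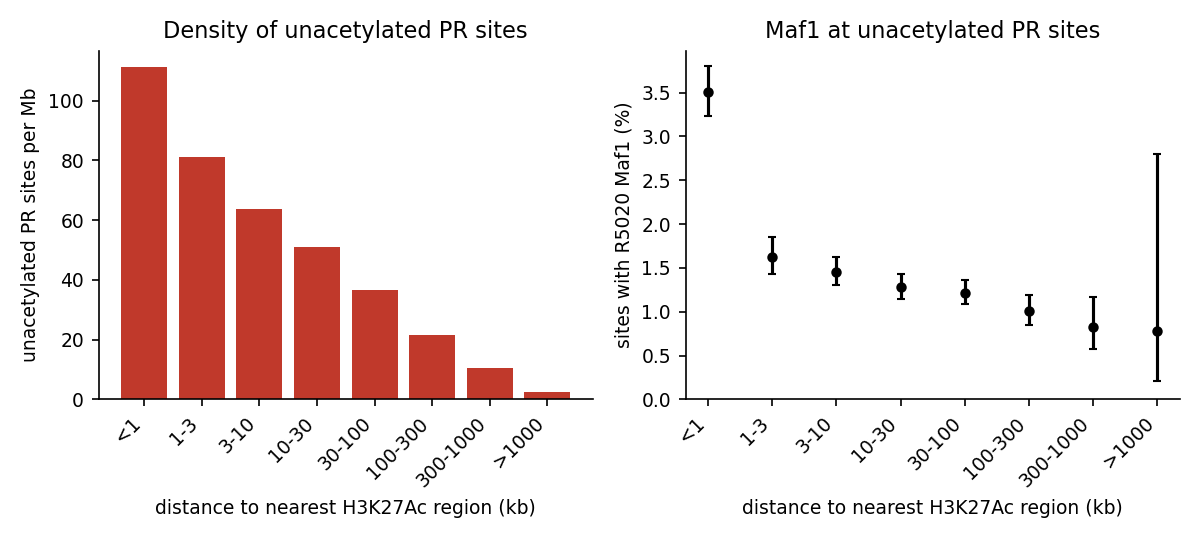
Left, unacetylated sites per Mb of sequence by distance to the nearest H3K27Ac region (kb). Right, share of the sites in each band that share a base with R5020 Maf1 (%, bars are 95% Wilson intervals); density falls from 111 to 2.51 per Mb, and the Maf1 share from 3.51% to under 1%.

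Many of the sites lay in a small number of intervals between H3K27Ac regions, which differ in length. Whether the spacing departed from an even one was not tested. The nearest other unacetylated site was 5.37 kb away at the median, and 80435 of 117366 (68.5%) had one within 10 kb. Of 128021 intervals between neighbouring H3K27Ac regions, 27.0% held at least 1 site, and 2525 held 10 or more, together 33.8% of all unacetylated sites. The most in 1 interval was 64. One such interval was chr13:81443860-85508966, around SLITRK1, a neuronal transmembrane protein, where the strongest site had a fold of 54.4. The other was chr15:93901195-95895596, around MCTP2. Next came 59 sites in 2220 kb of chromosome 18 around CBLN2 and NETO1, both synaptic proteins. These 3 intervals are long: their densities, 15.7, 32.1 and 26.6 per Mb, lay below the 29.9, 38.0 and 33.8 of their chromosomes. Median folds in these 3 intervals were 5.23, 5.41 and 5.23, near the 5.42 of all unacetylated sites.

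At genes, 15466 of 19970 protein-coding genes (77.4%) had an unacetylated site in the span or within 10 kb of it. Genes without any H3K27Ac region there numbered 3574, and 2146 of them (60.04%) had such a site, against 81.2% of the 16396 genes with H3K27Ac. Genes without H3K27Ac were shorter, with a median span of 11.1 kb against 27.6 kb. Among genes of at least 100 kb, the shares were 89.0% of 429 and 99.5% of 2922, and the pooled densities 1.63 and 5.37 sites per 100 kb. Among genes under 20 kb, which were 2253 of the 3574 without H3K27Ac, the shares were 47.8% and 64.1%. Pooled densities of these short genes were nearer to each other, 3.26 and 4.34 per 100 kb. Between 20 and 100 kb the densities were 3.20 and 5.63. The gene classes use the H3K27Ac lists of the rule, so these values are a description.

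The genes without H3K27Ac that held most unacetylated sites had spans of 188 to 780 kb. FSTL5, a follistatin-like secreted protein, had 26 over 780 kb, and FBN1, the fibrillin-1 of connective tissue microfibrils, had 22 over 237 kb. ADAMTS12, a secreted metalloprotease, had 21, and 19 each were at ATP8A2, a phospholipid flippase, NXPH1, a neurexin ligand, and PDE4B, a cAMP phosphodiesterase. PDE4B held the strongest of these sites, with a fold of 34.8. TMTC1 had 18, ADGRD1, an adhesion receptor, 17, SLC35F3 17 and CACNA1E, a neuronal calcium channel, 16. Across these 10 genes R5020 Maf1 was at 1 site each of TMTC1 and SLC35F3 and at no other.

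The genes with the most unacetylated sites were long, though length alone did not order them. RBFOX1, a neuronal splicing factor with a span of 2474 kb, had 8. DLG2, a postsynaptic scaffold, had 119 unacetylated sites over 2173 kb, and AUTS2, a regulator of neuronal development, 118 over 1195 kb. MACROD2 had 90, LPP, a focal adhesion protein, 82, GPHN, the scaffold gephyrin, 79, TENM3 and THSD4 76 each, and KCNMA1, a calcium-activated potassium channel, 74. RANBP2, a nuclear pore protein with near-identical copies elsewhere, also had 74, over a span of 1123 kb in the gene table, and its count is uncertain. RARB, a retinoic acid receptor, had 70, one with a fold of 52.4. All 10 also had H3K27Ac regions in both treatments.

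Per length the order was different. Among genes of at least 20 kb, RIOX2, a histone demethylase-family protein, had 31.6 unacetylated sites per 100 kb (16 sites), NLRP3, the inflammasome sensor, 26.5 (14 sites) and DERL1, of endoplasmic reticulum degradation, 26.5 (13 sites). ASPN, a matrix proteoglycan, had 23.8, and ZRANB1, a deubiquitinase, 23.0 with the highest median fold of the 10, 12.0. NBPF1, a member of a multicopy family whose reads may be shared among copies, had 22.5. YBX1, ADNP2, FNIP2 and UBE2N had 21.3 to 21.7. FNIP2, a partner of folliculin, had 34 sites, 4 of them with Maf1, and 1 with a fold of 53.6.

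Progestin-responsive genes carried unacetylated sites beside acetylated ones. Of the 24 listed, 21 had at least 1 (87.5%, 69.0 to 95.7), an interval that includes the 77.4% of all protein-coding genes. The median was 6.50 per 100 kb, against 4.06 over all protein-coding genes. Beside the counts by gene here and in the next paragraph, the unacetylated share over all R5020 PR regions was 67.8%. FKBP5, an Hsp90 cochaperone of steroid receptors, had 24 unacetylated sites among 46 R5020 PR regions. ZBTB16, the transcription factor PLZF, had 14 of 23, and EGFR, the growth factor receptor, 13 of 18. ERRFI1, an inhibitor of EGFR signalling, had 10 of 11 over a span of 14.6 kb.

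Luminal genes, all 20 with H3K27Ac, had unacetylated sites at 13 (65.0%, 43.3 to 81.9), with a median of 2.43 per 100 kb. That interval too includes the 77.4% of all protein-coding genes. ESR1, the oestrogen receptor, had 47 of 84 PR regions, GREB1, an oestrogen-induced coregulator, 18 of 67 and PGR, which encodes PR itself, 12 of 29. Other luminal genes had PR regions but few or no unacetylated ones: GATA3 had 1 of 24, SPDEF 0 of 18 and FOXA1 0 of 11. Basal or mesenchymal genes had them at 20 of 20 (83.9 to 100), median 4.02 per 100 kb. That interval lies above the 77.4%, but their median span was 39.2 kb against 24.2 kb over all protein-coding genes. MYLK, myosin light chain kinase, had 24 of 30 PR regions, COL5A2, a fibrillar collagen, 17 of 20, TP63, the basal transcription factor, 16 of 30 and FN1, fibronectin, 9 of 11.

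Leukocyte, liver and muscle genes had unacetylated sites at shares whose 95% intervals include the 77.4% of all protein-coding genes. Leukocyte genes had them at 17 of 20, median 4.60 per 100 kb, with 14 at FLI1, a haematopoietic ETS factor with no H3K27Ac region, 9 each at IKZF3, a lymphoid zinc finger factor, and ITGAM, an integrin, and 7 at CD247, the T cell receptor zeta chain. Liver genes had them at 16 of 20 (median 3.43), among them CPS1, a urea cycle enzyme (5), with 4 at TAT, tyrosine aminotransferase, and 3 at CYP2E1, a cytochrome P450. Muscle genes had them at 19 of 20 (median 3.97), with 46 at SGCZ, a sarcoglycan, 33 at DMD, dystrophin, 32 at RYR2, the cardiac calcium release channel, and 15 at SGCD.

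The 30 neuronal adhesion and synapse genes all had at least 1, 724 in total, but the lowest density of the 8 lists of protein-coding genes, a median of 1.56 per 100 kb over a median span of 1115 kb. After DLG2, NRG3, an ERBB4 ligand, had 52, CNTN5, a contactin, 50, and DSCAM and MAGI2 43 each. Ribosomal protein genes had them at 12 of 20 (median 3.74), at most 3, at RPL5, and RPS14, RPS3 and RPS6 were among those with 2. The 13 other polymerase III genes had them within 10 kb at 11. RN7SL1, the signal recognition particle RNA, had 4, the vault RNA genes VTRNA1-1 and VTRNA1-2 3 each from shared flanks, and RN7SK, the 7SK RNA, 2. No list was compared with the others by a test.

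**Figure D4:**
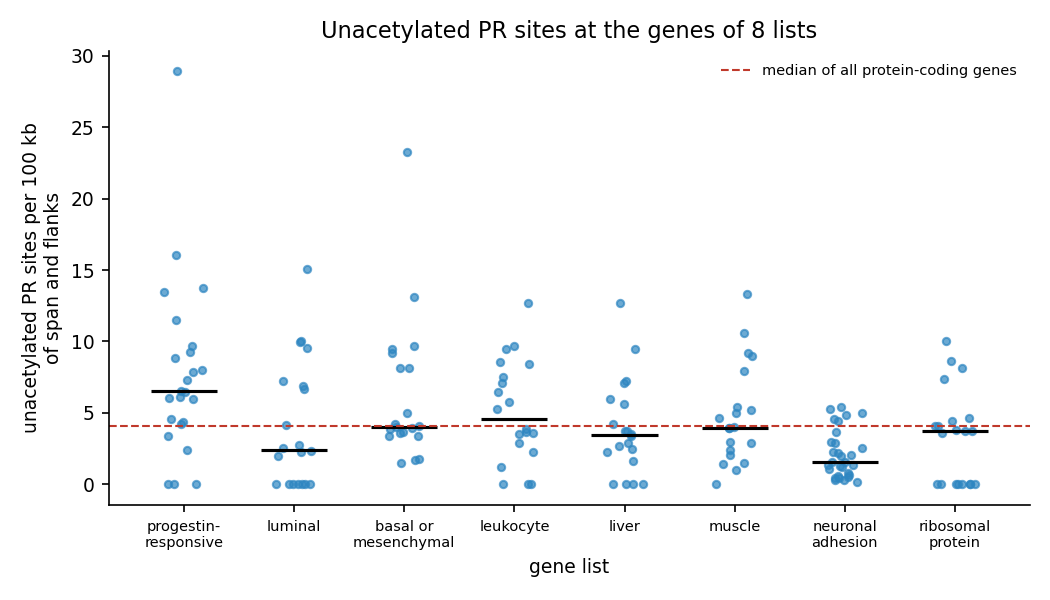
Unacetylated sites per 100 kb of gene span and 10 kb flanks (vertical axis) for each gene of 8 lists, 1 point per gene. Black bars are list medians, from 1.56 for neuronal adhesion genes to 6.50 for progestin-responsive genes, and the dashed line is the 4.06 of all protein-coding genes.

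Chromosomes differed in the share of PR regions that were unacetylated. It was highest on chromosome 13 (79.5%, 78.3 to 80.7), chromosome 18 (78.8%) and chromosome 4 (78.3%), and lowest on chromosome 19 (37.9%, 36.5 to 39.4), chromosome 17 (49.8%) and chromosome 22 (51.5%). Unacetylated sites per Mb ranged from 21.0 on chromosome X and 27.1 on chromosome 19 to 47.1 on chromosome 20. Chromosome 13, first by share, had only 29.9 per Mb, so the orders by share and by density were different.

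**Figure D5:**
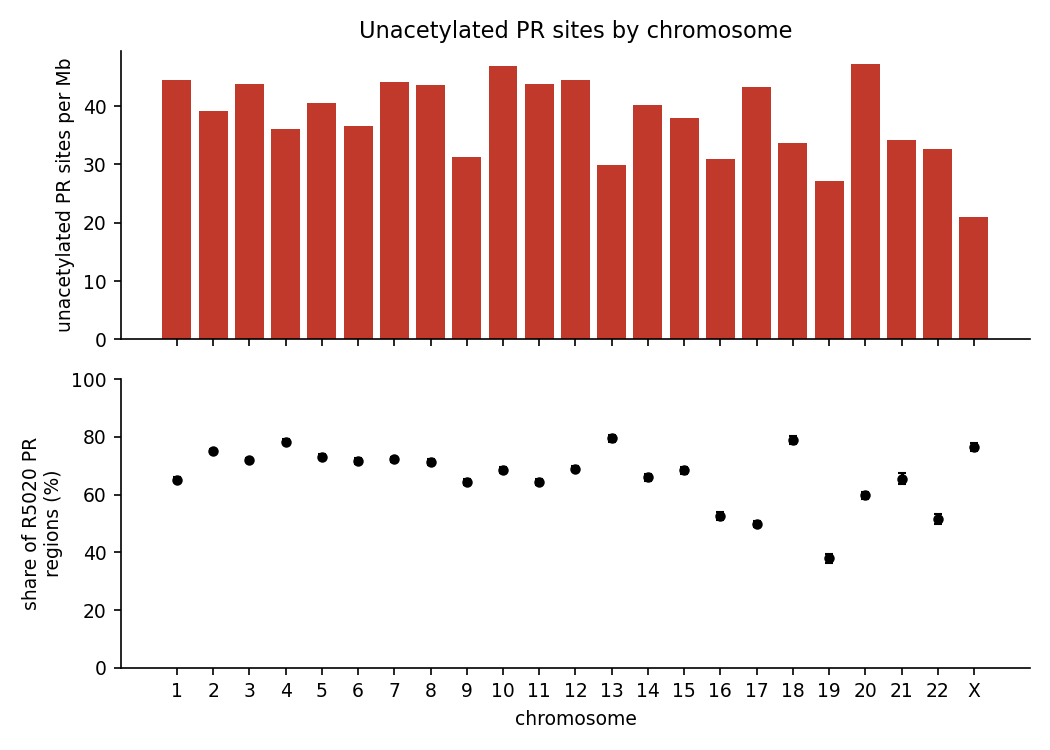
Unacetylated sites per Mb (top) and their share of the R5020 PR regions (bottom, %, bars are 95% Wilson intervals) for chromosomes 1 to 22 and X. Chromosome 19 is lowest by share, at 37.9%, and chromosome X lowest by density, at 21.0 per Mb.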

How the data were processed

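ChIP-seq peak lists for 8 antibodies, each with vehicle or R5020, were analysed as the authors deposited them. Each list gives a fold over background (a ratio) and -log10 p and q values per region, as the authors deposited them. Cutadapt, Bowtie2, MACS2 and hg38 are named, per the submitters' processing notes. How the 3 libraries were combined, which of the 6 inputs served as control and the calling thresholds are not given in the sources used here. Total reads are unknown, so the intervals cover counting of regions only.

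Regions were intersected by at least 1 shared base on chromosomes 1 to 22 and X, which left out 464 of 173579 R5020 PR rows. Shares carry 95% Wilson intervals and differences of shares Newcombe intervals. Gene spans and promoter windows are from RefSeq (GRCh38.p14). Motifs were searched in promoter windows alone; genomic sequence elsewhere was not used here. Coverage by exon or intron was not analysed here. Named genes are the 10 with most unacetylated sites, the 10 with most per 100 kb among spans of at least 20 kb, the 10 with most among genes without H3K27Ac, and up to 4 per list. Luminal genes with few or none are also named. Some listed genes are not reported here. Named sites are the 10 of highest -log10 q and the 5 of highest fold without Maf1. The regions, gene lists and motifs were chosen with earlier results of these data known. Overlap and interval code was tested on simulated data. Python 3.11.15, numpy 2.4.6, pandas 2.3.3, scipy 1.17.1 and matplotlib 3.10.9 were used.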

Additional observations from a re-analysis of the deposited data

How the results depend on the processing

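With 1 list per antibody and treatment, no replicate could be left out. No paired analysis was possible because the lists carry no values per replicate. Of 39 alternatives, 13 kept the value within the 95% interval of the reported one (the number of sites within 1.5 times) and 26 did not, many by little since the intervals are narrow; directions against the other classes were not retested. Requiring a PR -log10 q of 5 gave 105613 unacetylated sites, a median fold percentile in the whole list of 44.1 (45.2 as reported) and Maf1 at 1.75%. Requiring a PR fold of 5 gave 65903 sites, 42.1, Maf1 at 2.71% and POLR3G at 1.15%. Counting H3K27Ac only from a -log10 q of 5 gave a percentile of 46.8, Maf1 at 2.32%, POLR3G at 1.42% and gene ends within 1 kb at 2.97%. A 1 kb margin around H3K27Ac gave 44.7, 1.29%, 0.554% and 2.33%. A reciprocal overlap of 50% gave Maf1 at 0.223% and POLR3G at 0.301%. By quartile of PR fold, Maf1 was at 0.237%, 0.139%, 0.193% and 8.17%, and full motif matches, from the second quartile up, at 2.0%, 11.4% and 2.94% of windows. Gene ends within 5 kb were at 12.6%. The form with 1 mismatch (32.8%) and the vehicle POLR3G list (1.23%) were chosen after seeing the data. Background windows shifted by 1 kb were not run, for want of genomic sequence.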

Other observations

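MicroRNA hairpins shared a base with an unacetylated site in 40 of 1911 cases (2.09%), and with any R5020 PR region in 168 (8.79%). One site with a fold of 7.00 covered MIR17, MIR18A, MIR19A, MIR19B1 and MIR20A of the cluster on chromosome 13. Another, with a fold of 11.5, covered MIR214 and MIR3120 within DNM3, and a separate site with a fold of 4.05 covered MIR199A2 in the same gene. The strongest was at MIR5197 on chromosome 5, with a fold of 29.4. These hairpins were chosen after their values were seen.

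POLR3GL regions of either treatment lay at 113 unacetylated sites. Of these, 75 (66.4%) were on chromosome 8, which holds 5.39% of all unacetylated sites, and 70 lay within one stretch of 2 Mb there. The share of the whole POLR3GL lists on chromosome 8 is not given here, so the clustering is not read as a trait of unacetylated sites. The R5020 POLR3GL list is among those whose labels conflict.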
